A study of Drosophila melanogaster with 4 samples.

Results

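The regions described here are the stretches of 2L, the left arm of the second chromosome of Drosophila melanogaster, that were called enriched for histone H4 in late embryos. A region was taken when its row was named as enriched, lay on 2L and ended at or before base 22000000 of the FlyBase r5 build. This gave 2448 of 15405 enriched regions in replicate 1 (15.9%), 2083 of 12952 in replicate 2 (16.1%) and 3779 of 22525 in the combined list of the replicate set (16.8%). The rule used position alone, so covered shares, widths, gaps and scores were free to vary. The 1011544 bases of the arm past the limit held a further 55, 41 and 84 regions in these lists and are outside the account.

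The study compared chromatin immunoprecipitated with an antibody to H4 with input DNA in wild-type Oregon-R embryos of 14 to 16 h, a single strain, genotype and stage with no treatment. There were 2 ChIP libraries, 2 input libraries that served as their controls, and 3 deposited lists: 1 for each ChIP library and 1 combined. Embryos were whole and pooled, so every value averages over all their cell types. Separate embryo collections are not stated for the replicates, so any spread between them could be technical. Sequencing depth is unknown, because no read counts were used, and a region therefore carries no counting interval.

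H4 pairs with H3 in the core of the nucleosome and is present along nearly all chromatin, so a ChIP signal for the whole protein reads where nucleosomes are dense or well reached by the antibody relative to input, not a mark of gene activity. Arm 2L runs from the telomere at base 1 toward the pericentric heterochromatin at its high coordinates. Its centromere side also carries the cluster of replication-dependent histone genes, tandem repeats of the genes for H1, H2A, H2B, H3 and H4, which supply histones during DNA replication.

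Enriched regions on 2L were mostly short, with a long tail of broad ones. They covered 6.39 Mb in replicate 1 and 5.22 Mb in replicate 2, which was 29.0% and 23.7% of the 22 Mb (mean 26.4% ± 3.75, SD, n = 2). The combined list covered 9.66 Mb, or 43.9%. Median widths were 1987 bp, 1935 bp and 1850 bp in replicate 1, replicate 2 and the combined list. In replicate 1 the middle 50% of regions lay between 1554 and 2973 bp, and in replicate 2 between 1520 and 2744 bp. Widths of 10 kb or more were rare: 27 regions in replicate 1, 18 in replicate 2 and 56 in the combined list, which held 5.80%, 4.86% and 8.32% of the covered bases.

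Spacing differed between the replicates more than width did. The median gap from 1 region to the next was 2773 bp in replicate 1 and 3520 bp in replicate 2, against 1612 bp in the combined list. Regions often sat nearly side by side: 26.8%, 25.4% and 36.6% of gaps in replicate 1, replicate 2 and the combined list were at most 1 kb. Joining regions across such gaps left 1793 stretches in replicate 1, of which 1341 were still a lone region, and 1555 in replicate 2, of which 1204 were. The other end of the distribution carried much of the empty sequence. Gaps of 20 kb or more numbered 170 in replicate 1 and 213 in replicate 2 and held 39.4% and 49.1% of all bases between regions. In the combined list 59 such gaps held 12.9%.

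**Figure D1:**
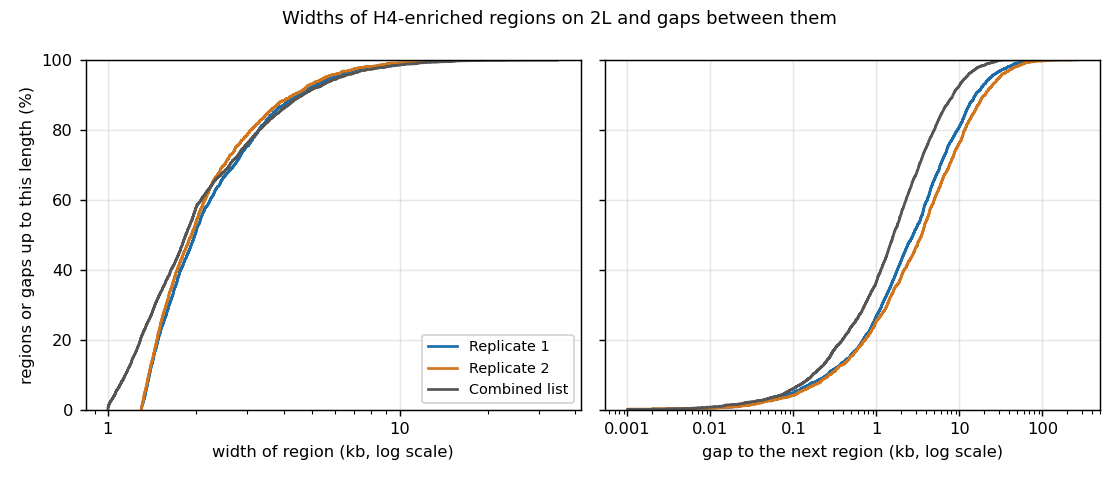
Cumulative share of enriched regions on 2L by width (left) and of gaps between successive regions by length (right), both in kb on log axes, for replicate 1, replicate 2 and the combined list. The width curves of the replicates nearly coincide (medians 1987 and 1935 bp), while the combined list starts at narrower widths and has shorter gaps.

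Along the arm, coverage was high toward the telomere, fell in the middle, rose again near 19 to 20 Mb and fell toward the centromere. Each of the first 7 windows of 1 Mb had at least 32.7% of its bases in regions in replicate 1 and at least 27.4% in replicate 2. The fall after them was uneven. The window from 7000001 to 8000000 had 23.2% and 16.2%, but that from 8000001 to 9000000 had 33.3% and 28.0%. The window from 13000001 to 14000000 had 31.9% and 26.3%. The highest by the mean of both replicates were 6000001 to 7000000, with 47.3% and 40.7%, the first Mb, with 48.8% and 39.1%, and 4000001 to 5000000, with 40.2% and 35.5%. The lowest were 17000001 to 18000000 (11.4% and 8.98%), 15000001 to 16000000 (14.7% and 11.8%) and 21000001 to 22000000 (15.5% and 12.2%). The window from 19000001 to 20000000 stood well above its neighbours on the centromere side of the arm, with 40.1% and 33.1%, and held 154 and 139 regions, close to the 162 and 132 of the first Mb. Replicate 1 was above replicate 2 in all 22 windows, by 1.93 to 9.70 percentage points.

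At 100 kb the profile was much more broken. The 220 windows ranged from 0 to 81.1% covered in replicate 1 (median 27.1%) and from 0 to 69.4% in replicate 2 (median 21.6%). In replicate 1 the 22 fullest windows held 20.4% of all covered bases and the 55 emptiest held 8.63%; in replicate 2 these shares were 22.4% and 7.29%. The fullest by the mean of both replicates ran from 800001 to 900000, with 81.1% and 69.0%. The next ran from 1100001 to 1200000, with 69.9% and 69.4%. Neighbouring windows resembled each other, with a Pearson r of 0.54 in replicate 1 and 0.46 in replicate 2 between windows 1 step apart, which fell to 0.27 and 0.22 at 5 steps. These are descriptions across windows of 1 library, whose edges can cut the same region.

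**Figure D2:**
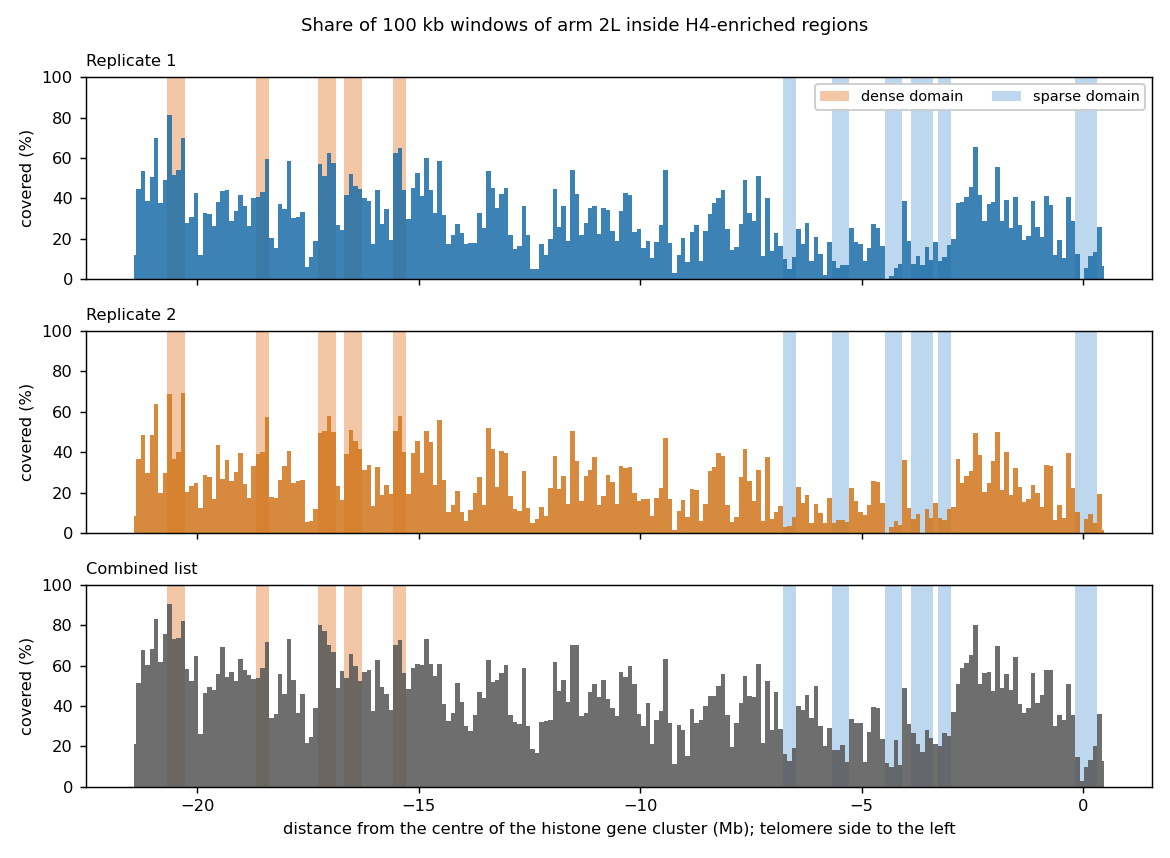
Share of each of 220 windows of 100 kb on 2L inside H4-enriched regions (percent, vertical axis) in replicate 1, replicate 2 and the combined list, against distance from the centre of the histone gene cluster in Mb, with the telomere side to the left. Orange bands mark the 5 dense domains and blue bands the 6 sparse ones: the dense domains all lie in the telomere-side part of the arm and the sparse ones in the centromere-side part.

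Dense and sparse domains were defined as runs of at least 3 windows of 100 kb, each in the highest or the lowest 25% of the 220 windows in both replicates. There were 5 dense domains, 1.80 Mb in all, and 6 sparse domains, 2.40 Mb in all. The dense ones spanned 800001 to 1200000, 2800001 to 3100000, 4200001 to 4600000, 4800001 to 5200000 and 5900001 to 6200000. The fullest was the first of these, with 64.1% of its bases in regions in replicate 1 and 53.7% in replicate 2, and the least full was 4800001 to 5200000, with 46.1% and 44.2%. The sparse domains spanned 14700001 to 15000000, 15800001 to 16200000, 17000001 to 17400000, 17600001 to 18100000, 18200001 to 18500000 and 21300001 to 21800000. The emptiest in both replicates, 17000001 to 17400000, had 3.55% and 3.28%, and held 8 regions in each. In the combined list 21300001 to 21800000 was emptier, with 12.1% against 13.9%. The values chose the domains, so the contrast in coverage is a description with no test. The number of domains depended on the definition: windows of 50 kb in runs of 6 gave 0 dense and 1 sparse domain.

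The domains differed in the number, the width and the score of their regions together. Number and width make up the covered share by which the domains were chosen, so the contrasts in number, gap and width are largely set by that choice. Score rose with width across all regions (Spearman rho 0.73 and 0.71 in replicates 1 and 2), and the part of width in the score contrast was not tested. Dense domains held 14.8 and 15.0 regions per 100 kb in replicates 1 and 2, and sparse domains 4.33 and 3.42. The median gap inside dense domains was 1623 and 1578 bp, against 12995 and 14701 bp inside sparse ones. Regions were wider in the dense domains, with medians of 2548 and 2378 bp against 1620 and 1586 bp. Their median score was 0.64 and 0.62 against 0.48 and 0.52; the score is the authors' own value for a region, whose scale is not stated. In the combined list the number differed less, 16.3 against 10.3 per 100 kb, while the median width was 2739 bp against 1470 bp. Across all 220 windows of replicate 1, covered share followed the number of regions (Spearman rho 0.88) more closely than their median width (rho 0.57, over the 218 windows with a region), and replicate 2 gave 0.91 and 0.58, the latter over 217 windows. The combined list had the opposite order, with a rho of 0.62 for the number and 0.71 for the median width. These correlations share the same regions on both axes.

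**Figure D3:**
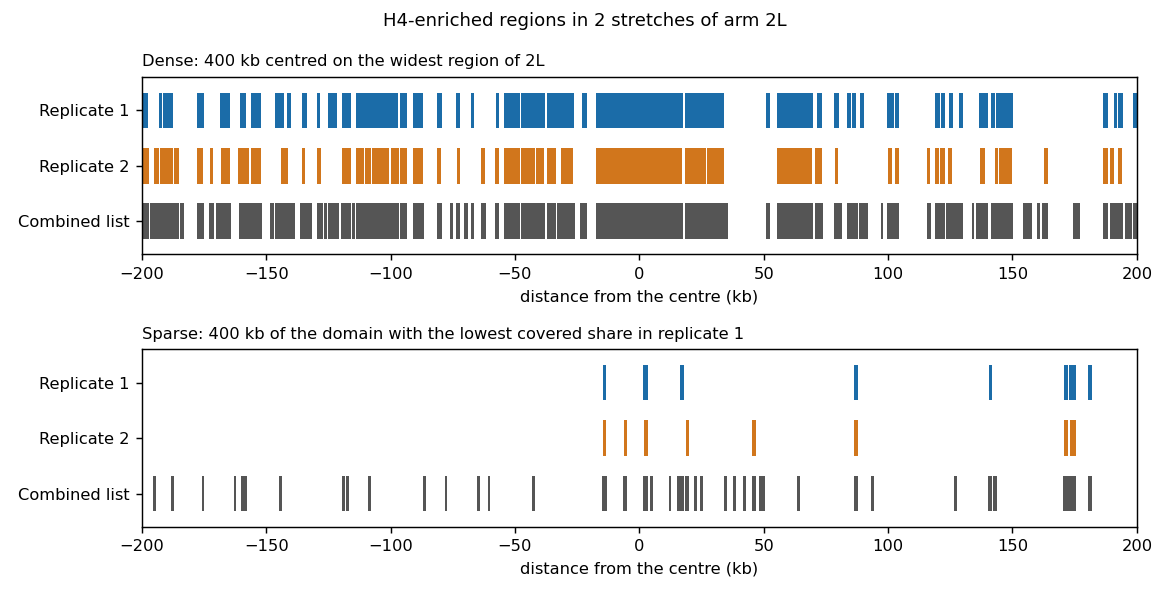
Enriched regions drawn as bars to scale in replicate 1, replicate 2 and the combined list over 400 kb around the widest region of 2L (top) and over the 400 kb of the sparse domain emptiest in the replicates (bottom), against distance from the centre in kb. The top stretch holds more and mostly wider bars with empty sequence between them, and its widest bar lines up between the lists. The bottom stretch holds 8 narrow bars in each replicate and 38 in the combined list.

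The sparse domain nearest the centromere contained the histone gene cluster, taken here as a stretch of 128 kb (128001 bases). The cluster begins 1831 bp past the combined region that ends at 21413169 and ends 379 bp into the one that begins at 21542622; its bounds are approximate. It was almost free of H4-enriched regions. Replicate 1 had none in these 128 kb, replicate 2 had a single region of 1310 bp near the far end (1.02% of the bases), and the combined list reached in by 379 bp (0.30%). The stretch without a region was 146.5 kb long in replicate 1 (21400028 to 21546575), 139.7 kb in replicate 2 (21399859 to 21539539) and 129.5 kb in the combined list (21413170 to 21542621). In the combined list it was the longest gap of the 22 Mb, and in replicates 1 and 2 it was the second and the third longest.

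The regions that closed this gap on the centromere side had the highest scores of the arm in both replicates. In replicate 1 the region from 21546576 to 21547947 scored 2.46, the highest of all 2448 regions, against a median of 0.55. In replicate 2 the region from 21539540 to 21540849, which lies inside the cluster, scored 3.11, and that from 21547064 to 21548400 scored 1.64. These were ranks 1 and 2 of 2083, against a median of 0.57. In the combined list the regions from 21542622 to 21543732 (score 2.22) and from 21546225 to 21549324 (score 1.46) were ranks 2 and 3 of 3779. The telomere side was less extreme: the nearest region scored 0.87 in replicate 1, 0.76 in replicate 2 and 1.02 in the combined list. Of the regions on the centromere side, those starting at 21546576, 21547064 and 21546225 overlapped one another across the 3 lists, and the others did not touch a region of another list.

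In the Release 6 RefSeq gene table, used for names and order only, the cluster is a run with 111 histone genes: 23 for H1 (His1), 20 for H2A (His2A), 23 for H2B (His2B), 23 for H3 (His3) and 22 for H4 (His4). It also holds 8 histone pseudogenes and 20 small noncoding RNA entries, and its neighbours are nrv3 and Lamp1. Tandem repeats can leave short reads without a unique place. How reads in repeats were handled is not given in the sources used here, and its part in the gap and in the high scores beside it was not tested.

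**Figure D4:**
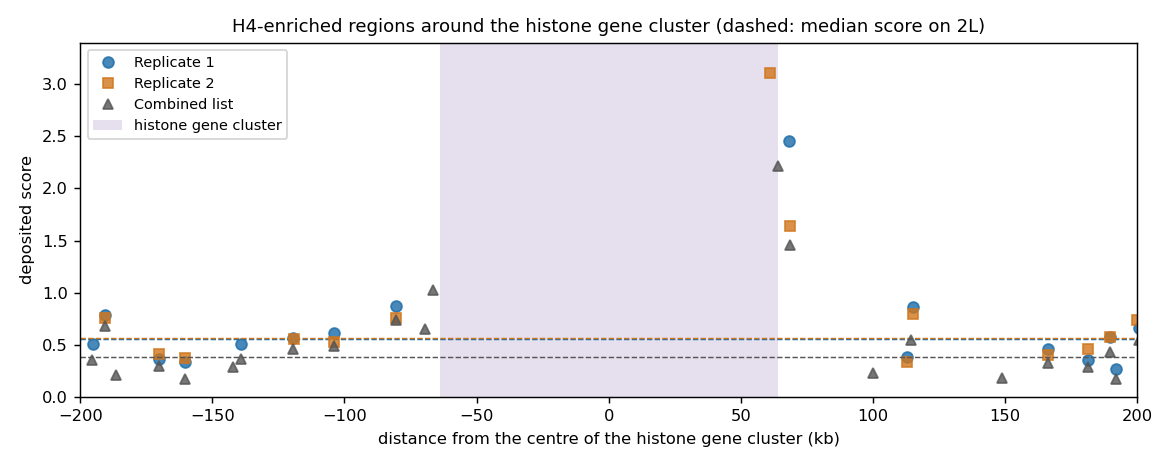
Deposited score of each H4-enriched region (vertical axis, scale not stated) against the distance of its midpoint from the centre of the histone gene cluster (kb) for replicate 1 (circles), replicate 2 (squares) and the combined list (triangles); dashed lines are the median scores on 2L. The shaded cluster holds a single point inside, the replicate 2 region at 3.11, and the points just past its centromere-side edge lie far above the medians.

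The widest regions of 2L that both replicate lists covered to at least 50% were in the telomere-side part of the arm. The 10 widest in the combined list, among the 1408 that were at least 50% covered by both replicate lists, ended no further than base 8073704. Cover by both lists was the condition for entry, so some overlap between the lists was fixed in advance. Of the 10, 7 lay at least partly in dense domains and 6 of these wholly. Dense domains made up 8.18% of the arm. A broad region raises the covered share by which they were chosen, so this count is in part set by that choice. The widest, from 4479146 to 4514176 (35.0 kb), was an unbroken region in both replicates, of 34.9 kb with a score of 1.07 in replicate 1 and 34.8 kb with 0.90 in replicate 2. Gaps under 1 kb linked it to further regions, so that the joined stretch ran from 4479273 to 4530767 in replicate 1 and from 4479155 to 4530847 in replicate 2. These were the longest joined stretches of the arm in each replicate, 51.5 and 51.7 kb. In the combined list it reached 53.3 kb and was passed by a chain of 10 regions from 771401 to 832447 (61.0 kb).

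The other broad regions were less often whole in the replicate lists. The region from 1158411 to 1186010 (27.6 kb) was split into 3 pieces in replicate 1 and 5 in replicate 2, although 86.8% and 90.0% of its bases were covered. That from 6181429 to 6208936 (27.5 kb) was in 3 and 4 pieces, with 93.5% and 68.9% covered, the lowest share of the 10. The region from 5122109 to 5145079 (23.0 kb) was whole in replicate 1 and in 3 pieces in replicate 2, and that from 5520182 to 5542522 (22.3 kb) was in 3 and 5 pieces. The remaining 5 were 17.4 to 19.6 kb wide and were covered to at least 83.6% by either replicate. They spanned 8054123 to 8073704, 2968245 to 2987572, 809188 to 828025, 183067 to 201822 and 4382660 to 4400017.

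The highest scores under the same condition belonged to narrower regions. The top 5 of the combined list scored 1.08 to 1.20 and were 4.61 to 12.7 kb wide, and each met a single region in each replicate. The first ran from 5316492 to 5326783 (score 1.20, with 1.39 in replicate 1 and 1.12 in replicate 2). The second ran from 6973128 to 6985790 (1.20, with 1.29 and 1.13). The third, from 16656919 to 16662233 (1.11, with 1.13 and 1.18), lay in the thinly covered Mb before the longest gap of the replicates. The others ran from 19493198 to 19497809 (1.08) and from 5030389 to 5037238 (1.08). Across all regions of a list wider regions scored higher, with a Spearman rho of 0.73 in replicate 1 and 0.71 in replicate 2; regions are not independent replicates.

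Outside the histone gene cluster the long gaps gathered in the centromere-side part of the arm. Of the 9 longest gaps of the combined list after the histone gap, 6 had their midpoint in a sparse domain. Sparse domains made up 10.9% of the arm and were chosen for low coverage in both replicates, so this count is in large part set by that choice. The 9 gaps were 29.1 to 39.4 kb long. The longest of these ran from 16964998 to 17004407, and in the replicates it lay inside a much longer empty stretch: 221.0 kb in replicate 1 (16964322 to 17185346) and 268.4 kb in replicate 2 (16917041 to 17185403), the longest gap of each. The combined list placed 14 regions inside that gap of replicate 1 and 18 inside that of replicate 2. Another 3 of these gaps lay close together on the centromere side of the histone cluster, at 21549325 to 21578424, 21595602 to 21627116 and 21681892 to 21712103. The remaining ones ran from 1626577 to 1659413, 17294137 to 17326657, 14685683 to 14716901, 18415131 to 18445366 and 7710639 to 7740686. With the histone gap included, no replicate 1 region lay inside any of the 10, and replicate 2 had a region inside only the histone gap, which follows in part from how much of the replicate lists the combined list takes in.

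Agreement of the replicates on 2L was measured in bases, regions and edges. In bases the overlap was 4.54 Mb, which made up 71.1% of what replicate 1 covered and 87.0% of what replicate 2 covered, with a Jaccard index (shared bases over bases in either) of 64.2%. By number, 1759 regions of replicate 1 touched replicate 2 (71.9%, 95% Wilson interval 70.0 to 73.6%), against 70.8% over all sequences. In the other direction 1827 regions of replicate 2 touched replicate 1 (87.7%, 86.2 to 89.1%), against 88.8% over all sequences. Both shares on 2L were thus near those of the whole lists. These intervals cover counting error only and take each region as independent. Regions that were not shared were narrower and scored lower: the 689 of replicate 1 had medians of 1516 bp and 0.48, against 2316 bp and 0.60 for shared ones, and the 256 of replicate 2 had 1455 bp and 0.49, against 2046 bp and 0.58. Touching needed only 1 shared base, which a wider region meets more easily, and score rose with width. How far this sets both contrasts was not tested. The median distance of unshared regions to a region of the other list was 2691 bp for replicate 1 and 1983 bp for replicate 2, with maxima of 70731 and 53173 bp. The median gap of the other list was itself 3520 bp and 2773 bp, and whether these distances are short for that spacing was not tested.

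Most edges of paired regions were placed closely, with a tail of large offsets. In the 1698 pairs formed by mutual largest overlap, starts differed by a median of 128 bp and ends by a median of 122 bp. The 95th percentiles were 1628 bp for starts and 1646 bp for ends. Shared regions outside these pairs were not measured. Both edges fell within 100 bp in 326 pairs (19.2%) and within 500 bp in 1161 (68.4%). Replicate 1 had the wider region in 1148 pairs (67.6%), with a median of 2341 bp against 2074 bp. Paired scores correlated across regions (Pearson r = 0.82, Spearman rho = 0.77). Covered shares correlated across the 220 windows of 100 kb (r = 0.96, rho = 0.96), and replicate 1 was higher in 201 windows, replicate 2 in 18, with 1 equal.

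**Figure D5:**
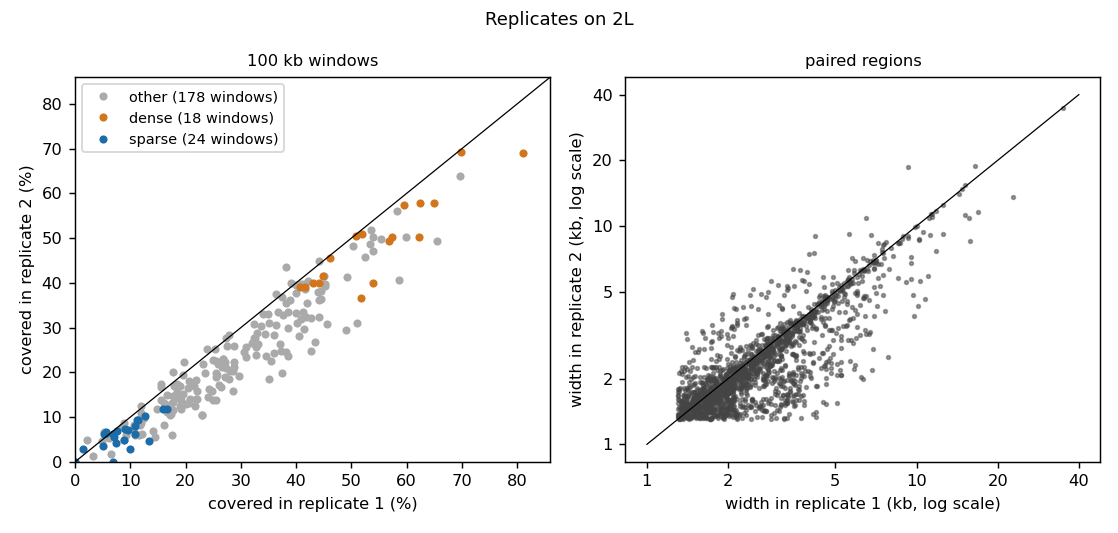
Left, covered share (percent) of each 100 kb window of 2L in replicate 1 against replicate 2, with windows of dense and sparse domains coloured and the line of equality drawn. Right, widths of 1698 paired regions in both replicates (kb, log axes). Most windows lie just below the line, since replicate 1 covers more, and the wider region of a pair is more often that of replicate 1 (1148 of 1698 pairs), with the widest pair at 34.9 and 34.8 kb.

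Dense and sparse domains also differed in how far the lists overlapped. The Jaccard index was 76.8% in dense and 46.6% in sparse domains. In dense domains 227 of 266 replicate 1 regions touched replicate 2 (85.3%) and in sparse domains 59 of 104 did (56.7%); for replicate 2 it was 252 of 270 (93.3%) and 63 of 82 (76.8%). The covered share also differed between the domains by construction, and its part in these overlaps was not tested.

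Nearly everything that either replicate marked on 2L (99.1% of bases) lay in the combined list, and 27.5% of its own bases (2.66 Mb) were in neither replicate. Of its 3779 regions, 1573 touched both replicates (41.6%, 95% Wilson interval 40.1 to 43.2%, against 43.3% over all sequences) and 1330 touched neither (35.2%, 33.7 to 36.7%, against 32.8%). In dense domains 59 of 294 combined regions touched neither replicate (20.1%), and in sparse domains 128 of 247 did (51.8%); since the domains were chosen by high or low coverage in both replicates, this contrast is largely set by their choice. Regions in neither were narrow, with a median of 1275 bp, and those in both had a median of 3086 bp. A wider region touches both replicates more easily, and how far this sets the contrast was not tested. The list had 782 regions on 2L narrower than any in the replicates, whose minimum there was 1301 bp. It also fused neighbours: 214 combined regions held at least 2 regions of replicate 1 and 228 at least 2 of replicate 2, up to 5 of either.

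Beside the other large arms, 2L was covered a little less than 2R, 3L, 3R and X together, with a ratio of 0.86 in replicate 1 and 0.89 in replicate 2, and it lay between 3L and X in each replicate. Regions per Mb were 111 and 94.7 on 2L against 149 and 131 on 2R, 119 and 97.4 on 3L, 141 and 120 on 3R and 97.5 and 78.4 on X. By the combined list 2L, with 172, was just above 3L, with 170.1. Median widths were alike, 1987 and 1935 bp on 2L against 2012 and 1970 bp on the 4 arms together, whereas the median gap was longer, 2773 and 3520 bp against 2311 and 2873 bp. Longer gaps were not particular to 2L: the median gap was 3242 and 4083 bp on X, and it was shorter than on 2L on 2R, 3L and 3R. The fall from telomere to centromere was steeper on 2L. The 11 Mb on the telomere side were covered 1.58 and 1.65 times as much as the 11 Mb on the centromere side in replicates 1 and 2 (35.5% against 22.5%, and 29.6% against 17.9%). When each of the other arms was divided at its midpoint, this ratio ran from 1.12 on 2R to 1.29 on X. The limit at base 22000000 leaves out the last Mb of 2L, which was covered to 13.5% and 10.8%, while the other arms were taken whole. A single group of 2 libraries gives no test between arms, and these differences were not tested.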

How the data were processed

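The authors deposited 3 region lists from H4 ChIP-seq of embryos crosslinked with 1.8% formaldehyde, per the labels' protocols. Bowtie 0.12.7 is named in the submitters' processing notes, and the build is FlyBase r5, per the file headers. How regions were called and replicates joined is not given in the sources used here. A first and last base (other values than measurements, 1-based) and a deposited score by the authors describe each region; the score was used only within a list and to correlate paired regions. Every row of 2L named as enriched was kept, with no filter on width or score. Members, lists and definitions were chosen with earlier results of these data known. Named regions are the 10 widest and 5 highest scoring of the combined list (at least 50% covered by both replicate lists), its 10 longest gaps, every domain, the highest 3 and lowest 3 windows of 1 Mb and the histone gene cluster; any other window was picked with its value known. At the end limit, the last region inside ended at 21974684 in replicate 1 (score 0.47), 21908312 in replicate 2 (0.50) and 21968195 in the combined list (0.42), and the first outside began at 22015273 (0.53), 22015624 (0.49) and 22011190 (0.40). No test was run, since 1 group of 2 libraries has no second group with values. Gene overlap, base composition and sequences were not analysed here, because the gene table at hand is of Release 6. Interval functions were tested on simulated lists. Python 3.11.15, NumPy 2.4.6, pandas 2.3.3, SciPy 1.17.1 and matplotlib 3.10.9 were used.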

Additional observations from a re-analysis of the deposited data

Results flagged for a closer look

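The combined list named a single region of 2L as depleted of H4, from 6358455 to 6359857 (1403 bp), a class that is outside the enriched regions described above. Its score was -0.0054, close to 0. No enriched region of either replicate touched it, and the nearest enriched regions of the combined list lay 1560 bp away on the telomere side and 696 bp away on the centromere side. It lies on the centromere side of the dense domain of 5900001 to 6200000. No value of the input libraries was used.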

How the results depend on the processing

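Of 78 recomputed values, 56 stayed within the spread of the replicates, the 95% interval of a share or 1.5 times a count, and 22 moved. The 56 include values that could not move. Leaving out 1 replicate always shifts a mean covered share, width, gap or ratio by less than the SD of the 2 replicates. The covered share of the histone gene cluster had a mean of 0.51% and an SD of 0.72, so even a fall to 0 counted as unmoved. Keeping only the 50% of regions with higher scores gave 989 regions as a mean of the replicates, a covered share of 15.9%, a median width of 2813 bp, a median gap of 7432 bp, a longest gap of 389216 bp and a ratio to the other arms of 0.81, while 65.0% of replicate 1 and 81.0% of replicate 2 touched the other list and the Jaccard index was 58.8%. With widths of at least 2000 bp the number was 1093, the covered share 17.9%, the median width 2926 bp, the median gap 5608 bp, the longest gap 382026 bp, and 90.9% of replicate 2 and 49.3% of the combined list were shared. Both settings remove regions, so fewer regions and longer gaps follow from their construction. Requiring 50% of a region to be shared gave touching shares of 68.1%, 85.6% and 37.3%. With replicate 1 reduced to the covered length of replicate 2 the Jaccard index was 61.3%. Windows of 50 kb in runs of 6 left 0 dense and 1 sparse domain, and windows of 200 kb in runs of 2 gave 7 and 7. Without replicate 1 there were 5 dense and 8 sparse domains, and without replicate 2 there were 7 and 6. Merging within 100 bp and the whole arm moved no value. Overlaps of the replicates have no value with 1 replicate. No paired analysis was possible because the input libraries have no values here and the regions come from no test between groups. Depth is unknown, and its effect was not tested.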

Other observations

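Very high scores in the combined list occurred in regions that touched both replicates and in regions that touched neither. Of its regions on 2L with a score above 1, 14 touched both replicates and were 3100 to 12663 bp wide, 0 touched a single replicate, and 6 touched neither and were 1001 to 1488 bp wide. Among all 3779 regions 41.6% touched both and 35.2% touched neither, with median widths of 3086 and 1275 bp. Narrow regions in neither replicate were thus not particular to high scores. The highest score of the arm, 3.26, was among the 6 in neither replicate, from 5178688 to 5179691. It lay inside the dense domain of 4800001 to 5200000, with a further one beside it from 5176541 to 5178028 (score 1.03). Another pair, from 21411842 to 21413169 (1.02) and from 21542622 to 21543732 (2.22), bounds the gap over the histone gene cluster on both sides. The remaining ones ran from 10862836 to 10863836 (1.27) and from 12940428 to 12941428 (1.08), both exactly 1001 bp, the minimum width of the combined list on 2L. The limit of 1 was chosen after the scores were seen.

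The replicates differed most in the 100 kb window from 14100001 to 14200000, covered to 51.0% in replicate 1 and 31.1% in replicate 2, followed by 700001 to 800000, with 49.1% and 29.6%. The largest difference the other way was in 1900001 to 2000000, with 38.1% and 43.5%.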
